A study of Mus musculus with 2 samples.

Results

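Immunoglobulin gene segments and constant regions were measured in spleen cells of Fx-/- mice, on and off fucose. The members are the probe sets of an Affymetrix mouse array whose platform annotation gives exactly 1 gene symbol, and whose symbol names a V, D, J or C gene of the heavy, kappa or lambda chain. There were 29 such probe sets for 20 gene symbols, of 23521 probe sets with 1 symbol and 41345 probe sets in all.

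Both groups were of genotype Fx-/-, and each was measured on 1 array. Fx encodes an enzyme that makes GDP-fucose, so animals without it need fucose from outside to fucosylate their glycoproteins. The on-fucose array held RNA of fucose-treated mice, and the off-fucose array held RNA of mice with no fucose treatment. The labels call the cells spleen cDC1, the type 1 conventional dendritic cells, and the series title calls them cDC1-enriched. Cells carrying B220, a surface marker of B cells, or CD11b had been removed with antibody-coated beads, and cells carrying CD11c were then kept. The strain, the age and sex of the mice, the dose of fucose and the number of mice behind an array are not given in the sources used here, and no wild-type array was used.

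B cells build an immunoglobulin gene by joining V, D and J segments in the heavy chain locus, and V and J segments in the kappa or lambda locus. The joined segments form the part of the antibody that binds antigen, and the constant region that follows sets the class, such as IgM from Ighm or IgG3 from Ighg3. B cells show the product on their surface with the partner chains CD79a and CD79b, and plasma cells secrete it in large amounts. In the RefSeq table of assembly GRCm38.p6, the heavy chain members lie on chromosome 12, the kappa members on chromosome 6 and the lambda member on chromosome 16, and all 29 probe sets carry the table's current symbol. The build of the array annotation is not given in the sources used here, so no start and end are printed.

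The array covers a small part of these loci by name. Of 384 immunoglobulin genes of the RefSeq table that meet the same naming rule, 20 had a probe set of their own, and 3 more were named only on probe sets shared by several genes. The members were 3 Ighv probe sets, 9 of heavy chain constant regions (7 named Ighm and 2 named Ighg3), 15 Igkv probe sets for 13 genes, 1 for Igkj1 and 1 for Iglv1. Ighd, Igha, Ighe, Ighg1, Ighg2b, Ighg2c, Igkc and the D segments, heavy chain and lambda J segments and lambda constant genes had 0 probe sets of their own. V segments of a family are alike in sequence, so a probe set may also read relatives of the gene it is named for. This was not tested.

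Values are log2 of the deposited intensity, and differences are off fucose minus on fucose. With 1 array per group there is no replicate, so no test, SD or p-value is given and every difference describes these arrays only. For scale, differences among probe sets of similar intensity had a robust SD of 0.17 to 0.34 over 20 intensity bins, which holds array noise and biology together. The median log2 intensity over all probe sets was 2.81 on fucose and 2.82 off fucose. Members near that level carry little signal over background, where differences are understated. In all, 18 of the 29 members reached a mean log2 value of 2.86, the median of the probe sets with 1 symbol. Probe sets respond differently to their targets, so a level is compared between the arrays and not between genes.

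Off fucose, more immunoglobulin probe sets had a higher value than a lower one. Of the 29, 22 were higher, 5 were lower and 2 were identical, whereas 47.8% of all probe sets with 1 symbol were higher. The members higher by at least 2-fold were 3, Ighv1-53, Igkv4-91 and a probe set named Ighm, against 1.16% of all probe sets with 1 symbol. None of the 29 was at least 2-fold lower, against 0.255%. Differences of 0.5 or more were found for 10 members upward (background 4.16%) and for 0 downward (background 3.71%). The median difference of the members was 0.25, and that of all probe sets with 1 symbol was 0. Among the 9 members whose mean over both arrays was at least 5 on the log2 scale, 5 were higher, 3 lower and 1 identical, with a median difference of 0.041, so most of the higher members were dimmer ones. Of all probe sets with 1 symbol at that intensity, 37.9% were higher. When differences were centred on T cell genes, which moves the median of all probe sets with 1 symbol to 0.23, all 29 members were above 0. So were 83.2% of all probe sets with 1 symbol. At that setting 6 members were at least 2-fold higher (background 1.94%). With 16 intensity units added before log2, only Igkv4-91 remained at least 2-fold higher (background 0.497%), and the median of the members was 0.084.

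**Figure D1:**
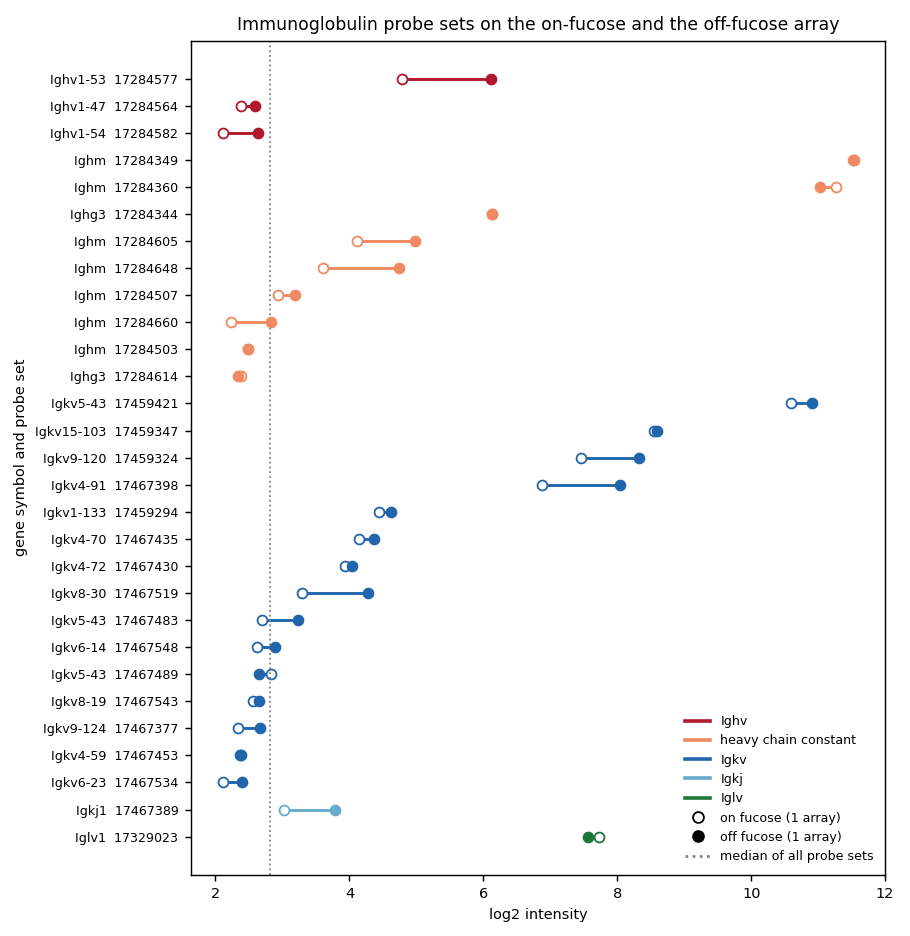
Log2 intensity of each of the 29 immunoglobulin probe sets on the on-fucose array (open circles) and the off-fucose array (filled circles), 1 array each, coloured by chain and segment class, with the median of all probe sets as a dotted line. Filled circles lie to the right of the open ones for 22 of 29 probe sets, while the Ighm probe sets above 11 lie at nearly the same place on both arrays or slightly lower off fucose.

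The probe sets named for heavy chain constant regions showed no common direction. Ighm, the constant region of IgM, had probe sets with high values on both arrays. Probe set 17284349 had 11.53 on both arrays (intensities of 2959 on fucose and 2948 off fucose), or -0.0052 apart, which turned to 0.027 after quantile normalisation, 0.012 after loess and 0.23 when centred on T cell genes. Probe set 17284360 had 11.26 and 11.03, a difference of -0.23, which turned to just above 0 when centred on T cell genes. Both differences are close to or within the robust SD of 0.20 for probe sets of like intensity.

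The other 5 probe sets named Ighm had lower intensities and did not follow these. Probe set 17284648 went from 3.60 to 4.75, which is 2.21-fold higher. Probe set 17284605 had 4.11 and 4.98, a difference of 0.87. Near the array median, probe set 17284660 had 2.23 and 2.84 (0.60) and probe set 17284507 had 2.93 and 3.19 (0.25). Probe set 17284503 had 2.49 on both arrays, with the same deposited value. Probe sets of 1 symbol thus differed between the arrays by up to 2.21-fold or not at all. By number, probe sets 17284605, 17284648 and 17284660 come after those named Ighv1-47, Ighv1-53 and Ighv1-54. A probe set outside the rule names Ighm together with Ighg3 and Ighv1-47. Whether each probe set named Ighm reads the constant region, and which part of it, is not given in the sources used here.

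Ighg3, the constant region of IgG3, was the only other constant gene with probe sets of its own. Probe set 17284344 had 6.13 on both arrays, again with the same deposited value. Probe set 17284614 had 2.38 and 2.33, a difference of -0.051. Such equal values occurred in 875 of the 41345 probe sets. Over the 9 probe sets named for constant regions 4 were higher, 3 lower and 2 identical off fucose (47.8% of all probe sets with 1 symbol were higher). Their median difference was 0, or 0.23 when centred on T cell genes.

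All 3 heavy chain V segments had higher values off fucose (47.8% of all probe sets with 1 symbol did). They belong to the Ighv1 family. Ighv1-53 (probe set 17284577) had an intensity of 27.4 on fucose and 69.2 off fucose, or 4.78 and 6.11 on the log2 scale. Its difference of 1.33 (2.52-fold) had the largest size of the 29 and was 4.57 times the robust SD at its intensity. Ighv1-54 (2.11 and 2.63; 0.53) and Ighv1-47 (2.38 and 2.59; 0.21) were below the array median on both arrays. Only Ighv1-53 therefore had a clear signal among the 3, and the class median of 0.53 is the value of a dim probe set.

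Kappa chain V segments were higher off fucose in 14 of 15 probe sets (47.8% of all probe sets with 1 symbol were), with a median difference of 0.26. Of the 15, 9 reached a mean log2 value of 2.86, and the others were dim. Igkv4-91 (probe set 17467398) had intensities of 117 on fucose and 264 off fucose, or 6.87 and 8.04. Its difference of 1.18 (2.26-fold) was 4.97 times the robust SD at its intensity and stayed at least 2-fold under every scaling tried. Igkv9-120 had 7.46 and 8.33 (0.87; 1.83-fold), at intensities of 176 and 321. Both had values well above the array median on both arrays.

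Igkv8-30 lay just under the 2-fold threshold at this scale. It went from 3.30 to 4.28, a difference of 0.98, and passed 2-fold after quantile normalisation, after loess and when centred on T cell genes. The probe set named for Igkj1, a J segment of the kappa chain, had 3.02 and 3.78 (0.76). Both started close to the array median, so their differences are less certain than those of Igkv4-91 and Igkv9-120.

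Most other kappa V probe sets differed by at most 0.32, bright ones included, with 1 of Igkv5-43 as the exception. Igkv15-103 went from 8.55 to 8.59, a difference of 0.041. Igkv5-43 had 3 probe sets, which went from 10.59 to 10.90 (0.31), from 2.69 to 3.24 (0.55) and from 2.83 to 2.65 (-0.18). The last of these was the single kappa probe set with a lower value off fucose. Igkv1-133 had 4.44 and 4.62 (0.18), and the remaining 7 Igkv probe sets had differences from 0.014 for Igkv4-59 to 0.32 for Igkv9-124.

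Segments of the Igkv4 family had unequal differences, and the other families held too few bright probe sets for such a comparison. Igkv4-91 had 1.18, while Igkv4-70 (4.14 and 4.37) had 0.23, Igkv4-72 (3.94 and 4.05) had 0.11 and Igkv4-59, dim on both arrays, had 0.014. In the Igkv9 family, Igkv9-120 had 0.87 and the dim Igkv9-124 had 0.32. In the Igkv8 family, Igkv8-30 had 0.98 and the dim Igkv8-19 (2.56 and 2.65) had 0.089. The Igkv6 pair, Igkv6-23 and Igkv6-14, had 0.29 and 0.26 at values below 2.9 on both arrays.

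By the places of the genes they are named for, the larger kappa differences were spread along the locus. In the order of their RefSeq starts, the 14 kappa genes run from Igkv1-133 to Igkj1. Igkv9-120, Igkv4-91, Igkv8-30 and Igkj1, with differences from 0.76 to 1.18, took places 3, 5, 10 and 14. Place 14 is that of the gene Igkj1. By number, its probe set 17467389 falls between those of Igkv9-124 (17467377) and Igkv4-91 (17467398). Where that probe set reads was not tested, so its place is uncertain. Genes with differences of at most 0.32 lay between these 4 genes, such as Igkv15-103 at place 4 and Igkv4-72 at place 6. So did Igkv5-43 at place 9, whose probe sets ran from -0.18 to 0.55. The heavy chain members were too few for such an order.

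**Figure D2:**
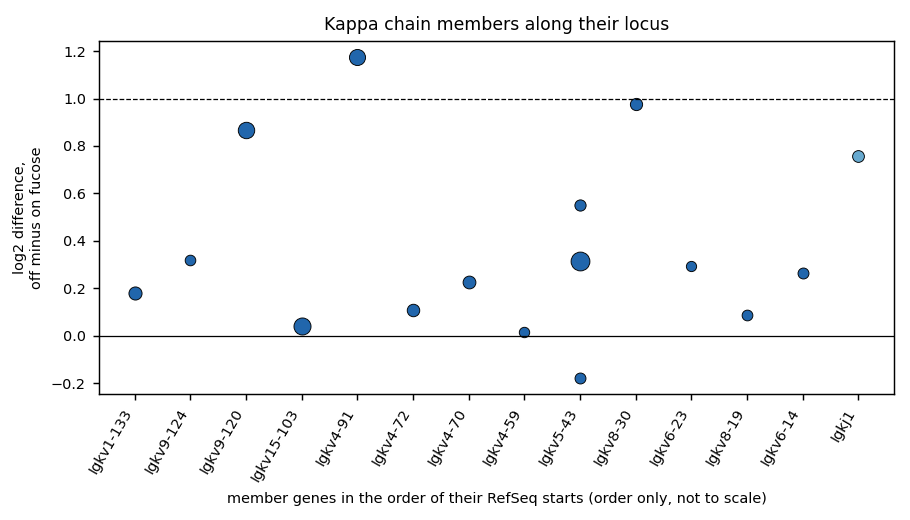
Log2 difference, off minus on fucose, of the 16 kappa chain probe sets of 14 genes, in the order of the RefSeq starts of the genes they are named for (order only), with larger points for higher mean intensity and 1 array per group. Igkv4-91 lies above the dashed line at 2-fold, Igkv8-30 just under it, and genes with differences near 0 lie between them.

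The lambda chain had 1 member. Iglv1 (probe set 17329023) went from 7.73 on fucose to 7.56 off fucose, a difference of -0.17 that turned to 0.064 when centred on T cell genes. It is smaller than the robust SD of 0.24 at its intensity. Among the chains, 15 of 16 kappa probe sets, 7 of 12 heavy chain probe sets and 0 of 1 lambda probe set were thus higher off fucose. Of all probe sets with 1 symbol, 47.8% were higher. The difference between the chains was not tested.

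Probe sets outside the rule that name immunoglobulin genes were higher off fucose in most cases. Of 5 probe sets shared by several immunoglobulin genes, all 5 were higher (47.8% of all probe sets with 1 symbol were). The one shared by Ighg3, Ighv1-47 and Ighm had 8.55 and 9.41 (0.86), and the one shared by Igkv9-124 and Igkv4-70 had 10.72 and 11.36 (0.64). The one shared by Igkv4-53, Igkj1 and Igkv6-23 had 11.87 and 11.98, a difference of 0.10. Of the probe sets named Igh-VS107, a symbol outside the rule, one had 7.43 and 7.88 (0.45) and the other, dim on both arrays, had 2.56 and 2.04 (-0.52).

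T cell receptor segments, which T cells join by the same kind of rearrangement, leaned the other way on these arrays. Their 21 V segment probe sets had a median difference of -0.29, with 3 higher and 18 lower off fucose. Of all probe sets with 1 symbol 47.8% were higher, and of those with a mean of at least 5, 37.9%. The latter is the closer background, as the median of the 21 was 8.10 on fucose. Of the 3 higher, Trgv5 and Trgv6 were below the array median on both arrays. At least 2-fold lower were 2 of the 21 (background 0.255%). The 21 probe sets belong to 8 symbols, and 2 pairs of them had the same values as each other. T cell genes had a median difference of -0.23 on the same arrays. The gap between the immunoglobulin and the T cell receptor probe sets was not tested.

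**Figure D3:**
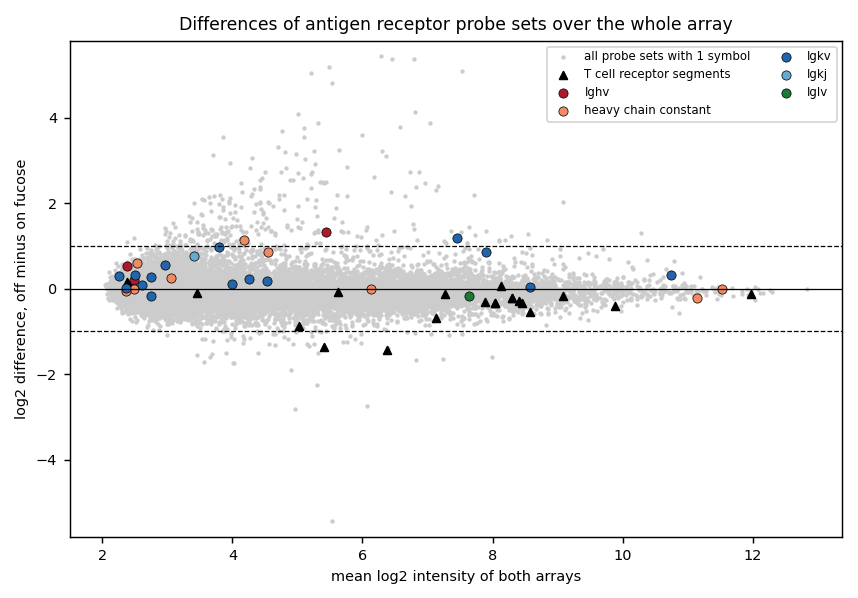
Log2 difference, off minus on fucose, against the mean log2 intensity of both arrays for the 23521 probe sets with 1 symbol (grey), the immunoglobulin members (coloured circles) and the T cell receptor V segments (black triangles), with dashed lines at 2-fold. The immunoglobulin members lie from -0.23 to 1.33 and the T cell receptor segments from -1.44 to 0.16.

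Genes that mark B cells did not go up together with the immunoglobulin segments. Of 22 genes of the B cell identity list, 20 were measured alone on a probe set. Of these, 7 were higher, 12 lower and 1 identical off fucose, with a median difference of -0.14 (47.6% of all genes were higher). The median was 0.096 when centred on T cell genes. Many of the 20 were dim, with a median log2 value of 3.45 on fucose and 3.58 off fucose. Over all probe sets these medians were 2.81 and 2.82. Differences of such dim genes are understated, so a shared shift could be missed. The summed intensity of the list was 1902 on fucose and 1674 off fucose, most of it from Ptprc and Cd37, which other leukocytes also express. Only Btk, a kinase of B cell receptor signalling that myeloid cells also use, was at least 2-fold apart, at 3.05 and 4.18 (background 1.2% of genes higher and 0.257% lower). Cd79a, which encodes a partner chain of surface immunoglobulin, had 3.21 on fucose and 2.53 off fucose (-0.69), and Cd79b had 4.67 and 4.45. Cd22, an inhibitory receptor of B cells, had 3.73 and 3.14 (-0.59). Ms4a1, which encodes CD20, had 3.20 and 2.83, and Pax5, the factor that commits cells to the B lineage, had 2.91 and 3.07. Blk had 3.47 on fucose and 3.88 off fucose (0.41). Spib (0.37), Fcer2a (0.29) and Fcrla (0.25) were also higher off fucose, while 12 genes of the list were lower. In bulk RNA, fewer cells of a type and less RNA per cell cannot be told apart.

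Plasma cell genes had small differences, most of them upward. All 16 genes of the list were measured, and 12 were higher, 3 lower and 1 identical off fucose, with a median difference of 0.12 (47.6% of all genes were higher). The summed intensity of the list was 783 on fucose and 850 off fucose. Fkbp11, a secretory pathway foldase gene, went from 2.68 to 3.72 (1.05) and was the single member at least 2-fold apart (background 1.2% of genes higher). Txndc5 and Creld2, which act in protein folding in the endoplasmic reticulum, had 0.44 and 0.41, and Mzb1, a chaperone of antibody assembly, had 3.49 and 3.89. Prdm1 had 3.44 on fucose and 3.13 off fucose (-0.31), the largest fall of the list, and Irf4 had 3.08 and 3.17. Jchain, whose product joins IgM and IgA into multimers, had 4.23 on fucose and 4.39 off fucose. Tnfrsf17, a surface receptor of plasma cells, had 2.46 on both arrays, below the array median. The part of plasma cells in the differences of the segments was not tested.

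Genes of V(D)J rearrangement and of precursor B cells showed no common shift. Of 14 measured genes, 6 were higher and 8 lower off fucose (47.6% of all genes were higher). None was 2-fold apart (background 1.2% of genes higher and 0.257% lower). The median was -0.15 (0.087 when centred on T cell genes). Rag2, which cuts the segments for joining, had 2.34 and 2.49, and Dntt, which adds nucleotides at the joints, had 2.99 and 2.56. The surrogate light chain genes Igll1 (2.47 and 2.65), Vpreb1 (2.67 and 2.51) and Vpreb2 (2.86 and 2.93) were near or below the array median on both arrays. Bcl11a, a factor that early B cells and dendritic cells need, had the largest difference of the list, at 3.11 and 3.93. The class switch and germinal centre list had a median of 0.034 over 8 measured genes, with Fas at -0.73 and Gcsam at 0.69.

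**Figure D4:**
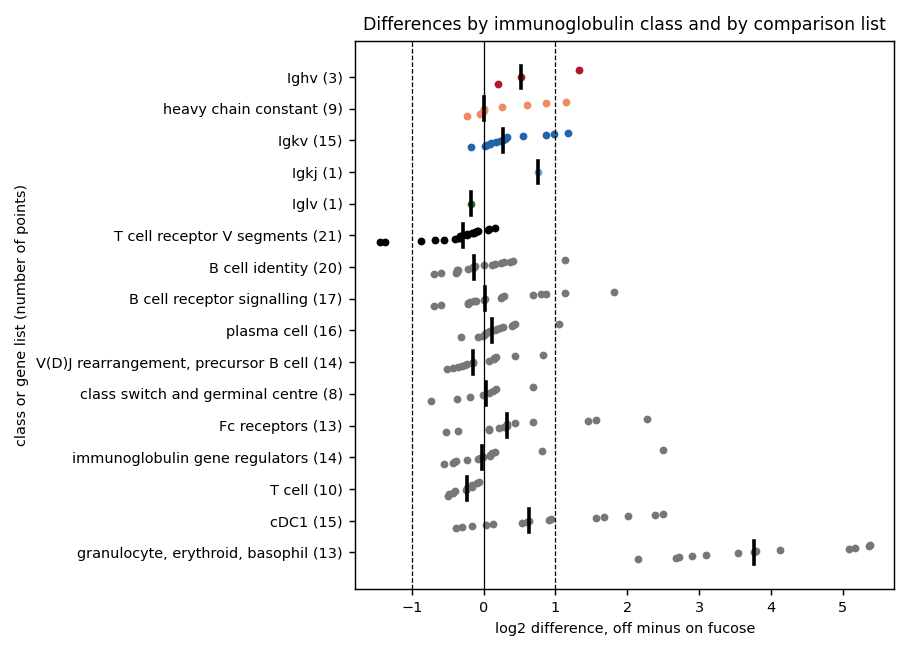
Log2 difference, off minus on fucose, for each probe set of the immunoglobulin classes and the T cell receptor V segments and for each measured gene of the comparison lists, with a black bar at the median, dashed lines at 2-fold and 1 array per group. The Igkv median lies at 0.26, the B cell identity median at -0.14, and the list of granulocyte, erythroid and basophil genes at 3.76.

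The arrays differed in other cell markers alongside these segments. T cell genes were bright on both arrays, with a median of 10.10 on fucose and 9.66 off fucose over 10 genes. All 10 of them were lower off fucose, while 47.6% of all genes were higher. Of probe sets with 1 symbol and a mean of at least 5, as these genes had, 37.9% were higher. All 13 genes of a granulocyte, erythroid and basophil list, made with earlier results known, were at least 2-fold higher off fucose (background 1.2% of genes), and their summed intensity was 209 on fucose and 4161 off fucose. Over 15 cDC1 genes the median difference was 0.63, with 12 higher and 3 lower off fucose (47.6% of all genes were higher). Cd8a, Id2 and Itgae were the lower ones. Xcr1, a defining receptor of these cells, had 2.90 and 3.43, near the array median on fucose. Itgax, which encodes CD11c, had 3.83 and 3.86. Genes that differ by sex were unequal as well. Xist, which female cells express, had 8.26 on fucose and 2.82 off fucose, and the Y-linked Uty had 2.14 and 5.26. Sex and treatment therefore cannot be told apart on these arrays. The part of these differences between the arrays in the immunoglobulin values was not tested.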

How the data were processed

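RNA of 1 on-fucose and 1 off-fucose sample (9 ng each, per the labels' protocols) was hybridised to whole-transcript arrays. The deposited table holds a linear intensity per probe set, which the submitters' processing notes say the authors made with RMA. The version, settings and build are not given in the sources used here. After sorting, log2 values differed by 0.028 on average between the arrays, which would hide a shift of all genes. Log2 was taken of each deposited intensity. Probe sets were named from the platform annotation, and 1814 with several symbols and 16010 not listed were left out. Lists used the probe set with the highest mean for each gene. The number of arrays limits the precision. The members and lists were chosen with earlier results of these data known. Named were all constant region probe sets, the largest differences and highest means of each class, and up to 4 genes per list by size of difference. Other genes were named after their values were seen. Computation used Python 3.11.15, pandas 2.3.3 and statsmodels 0.14.6, and was tested on simulated data.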

Additional observations from a re-analysis of the deposited data

How the results depend on the processing

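No paired analysis was possible because there was only 1 array in each group, and no array could be left out. All alternatives were planned, and low signal over background limits the dim members. The 3 members at least 2-fold higher (background 1.16% of all probe sets with 1 symbol) became 8 at 1.5-fold and 0 at 3-fold. The background share at 1.5-fold and at 3-fold is not given here, so those counts cannot be weighed against it. They became 6 when centred on T cell genes (background 1.94%) and 1 with 16 units added before log2 (background 0.497%). There were 4 after quantile normalisation (background 1.27%) or loess (background 1.33%). At a mean of at least 5 there were 2, against 100 of 5246 probe sets with 1 symbol. Over the mean of the probe sets of a gene there were 2, with no background share given here. No member was 2-fold lower under any of these. Centring on T cell genes adds 0.23 to every difference, which gave medians of 0.49 for all members, 0.76 for Ighv, 0.23 for constant regions, 0.50 for Igkv, 0.99 for Igkj and 0.064 for Iglv. The list medians were then 0.096 for B cell identity, 0.25 for B cell receptor signalling, 0.36 for plasma cells, 0.087 for V(D)J rearrangement, 0.27 for class switch, 0.56 for Fc receptors, 0.21 for regulators, 0 for T cells, 0.86 for cDC1 and 3.99 for the granulocyte, erythroid and basophil list. With any intensity filter only Ighv1-53 is left of Ighv (1.33). At the 67th percentile, Fc receptors had 0.56 and cDC1 0.92. At a mean of 5, the median of all members fell from 0.25 to 0.041, Igkv had 0.59, V(D)J rearrangement -0.43, class switch -0.37 and Fc receptors 0.034, over fewer genes. With 16 units added, which shrinks dim differences by construction, the medians were 0.084 for all members, 0.13 for Ighv, 0.30 for Igkj, 0.087 for Fc receptors and 2.54 for the granulocyte list. Other medians moved by less than 0.23, the robust SD of all differences. Of 18 named members, 4 changed sign with T cell centring, 1 after quantile normalisation and 1 after loess, none of them 2-fold apart.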

Other observations

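Genes of the receptors that bind antibodies were higher off fucose more often than not. Of 13 Fc receptor genes measured, 11 were higher and 2 lower (47.6% of all genes were higher). Of them, 3 were at least 2-fold higher (background 1.2% of genes), and the median difference was 0.33. Fcer1g, the signalling chain shared by several Fc receptors, went from 5.31 to 7.58 (2.27), Fcer1a, the chain of the IgE receptor that binds IgE, from 2.56 to 4.13 (1.57), and the IgG receptor gene Fcgr3 from 3.27 to 4.73 (1.46). Trim21, a cytosolic antibody receptor that interferon induces, went from 6.43 to 5.91, and Fcmr, the IgM receptor gene, from 5.81 to 5.44. Granulocyte, erythroid and basophil genes were higher off fucose as well, and their part in these values was not tested.

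The B cell receptor signalling list had 10 of 17 measured genes higher and 7 lower (47.6% of all genes were higher), with a median of 0.019. Plcg2, a phospholipase downstream of the receptor, went from 2.76 to 4.58 (1.82), Pik3ap1 from 5.24 to 6.11 (0.87) and the kinase gene Syk from 2.56 to 3.36 (0.80). Among 14 regulators of immunoglobulin genes the median was -0.029 (0.024 after loess). Irf8, at 4.18 and 6.68, was the single one at least 2-fold apart (background 1.2% of genes higher and 0.257% lower), and it is also a factor of cDC1 and other myeloid cells. Spi1, a factor of myeloid and B cells, had 2.87 and 3.69. Pou2af1, a coactivator of octamer-dependent immunoglobulin transcription in B cells, had 4.15 and 3.77, and Ikzf3, a lymphocyte factor, had 7.57 and 7.02.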
